A study of Mus musculus with 20 samples.

Results

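Described here are 8 genes of asparagine, proline, alanine and aspartate metabolism in mouse liver, out of 46078 genes in the table of counts: *Asns*, *Pycr1*, *Aldh18a1*, *Prodh*, *Gpt*, *Gpt2*, *Got1* and *Got2*. They were chosen by name, as enzymes of these 4 amino acids, with earlier results of these data known. All 8 had enough reads to be tested in every comparison. The study asked how liver responds to the loss of dietary cysteine in mice that cannot make it, and whether loss of tryptophan, alone or together with a block of glutathione synthesis, gives the same response. Livers came from male mice of at least 9 weeks on a 129/C57BL/6 background, which were held on a calorie-restricted control diet and then shifted to their test diet, calorie-restricted as well, for 2 days. Mice lacked *Cse* in all tissues (Cse-/-) or carried 1 working copy (Cse+/-). The gene, listed as *Cth*, encodes cystathionine γ-lyase, which releases cysteine from cystathionine. The 6 groups combined genotype and diet. Cse+/- mice received control food (n = 2), food lacking cysteine (no-Cys, n = 4) or food lacking tryptophan (no-Trp, n = 3). Cse-/- mice received no-Cys (n = 4), no-Trp (n = 3) or no-Trp food with buthionine sulfoximine (no-Trp + BSO, n = 4), an inhibitor of γ-glutamyl cysteine synthase. The sample labels call the control genotype wild type and the study's list of mice calls it heterozygous. No Cse-/- liver under control food was analysed here. Mice carry the numbers av01 to av22 of that list.

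These enzymes move amino groups and carbon between the citric acid cycle and the non-essential amino acids. ASNS makes asparagine from aspartate and glutamine, and its gene is a textbook target of the amino acid response, in which uncharged tRNA activates the kinase GCN2 and the transcription factor ATF4 binds composite C/EBP–ATF elements. ALDH18A1 and PYCR1 carry out the opening and closing steps of proline synthesis from glutamate in mitochondria, and PRODH opens the breakdown of proline. GOT1 and GOT2 exchange the amino group between aspartate and glutamate in the cytosol and in mitochondria and form part of the malate–aspartate shuttle. GPT and GPT2 do the same between alanine and glutamate, in the cytosol and in mitochondria, and feed alanine carbon into glucose synthesis in liver.

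The stretch before the start site is shown for the 3 genes whose promoter window held the core of the C/EBP–ATF element. These 3 also had the largest log2 fold changes of the 8 between genotypes on the no-Cys diet. A link between match and change was not tested, and *Got1* had another order of groups than *Asns*. The windows come from RefSeq (GRCm38.p6), run from 250 bases before to 50 bases after the start, and were found for 7 of the 8 genes, with none for *Gpt*. The motif TGATGNAA was searched on both strands and occurs in 3.97% of 32851 mouse promoter windows of 300 bases. GTTACA, the second nutrient-sensing element known from the human gene for ASNS, was searched in the same way and occurs in 8.25%. In *Asns* (chr6:7693205-7693334, minus strand), *Pycr1* (chr11:120643744-120643873, minus strand) and *Got1* (chr19:43524601-43524730, minus strand) 130 bases that end 5 bases past the start are printed 5′ to 3′ along the gene, with motif matches in capitals.
Asns: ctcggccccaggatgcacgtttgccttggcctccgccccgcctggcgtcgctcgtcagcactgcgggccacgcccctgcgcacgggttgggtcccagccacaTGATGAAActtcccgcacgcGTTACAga
Pycr1: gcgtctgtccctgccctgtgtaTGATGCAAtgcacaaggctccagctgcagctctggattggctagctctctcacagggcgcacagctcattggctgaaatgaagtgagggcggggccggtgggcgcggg
Got1: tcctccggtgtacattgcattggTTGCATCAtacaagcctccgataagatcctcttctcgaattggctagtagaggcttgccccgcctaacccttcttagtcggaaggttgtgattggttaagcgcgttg
In *Asns* the TGATGNAA match lay at -23 to -16 and GTTACA at -3 to 3. In *Pycr1* the match lay at -103 to -96, on the strand of the gene, and in *Got1* at -102 to -95, on the opposite strand. The windows of *Gpt2*, *Got2*, *Prodh* and *Aldh18a1* held neither motif. A match is a description of the sequence and not a measured site.

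All values are counts on genes, printed as CPM (the usual depth-scaled count, a gene's share of its library) after TMM scaling, from libraries of 11785740 to 57986121 counts. Differences are log2 fold changes ± SE of edgeR's quasi-likelihood model over all 20 livers, and a gene was called at a Benjamini–Hochberg adjusted p under 0.05 over 14759 genes tested. *Cth* was at 6.37 to 14.4 CPM in the 11 Cse-/- livers and 88.4 to 332 CPM in the 9 Cse+/- livers, with no overlap between genotypes. The highest of these, mouse av01 (Cse+/-, no-Cys), stood apart from its group, in which the other 3 livers were at 121 to 132 CPM, and mouse av08 (Cse-/-, no-Cys) was at 13.3 CPM against 6.37 to 7.04 in the other 3. Both are followed by number below. The 7 hepatocyte markers were all tested, and their summed level was at least 40932 CPM in every liver, with 40932 to 67554 in Cse-/- no-Cys livers and 85087 to 109481 in Cse+/- no-Cys livers. In Cse-/- no-Cys livers the 3 blood markers summed to 59.4 to 101 CPM. In Cse+/- no-Cys livers they summed to 172 to 363 CPM, with the highest in av01. Lower in Cse-/- than in Cse+/- livers on this diet were 4 of 7 hepatocyte, 2 of 5 cholangiocyte and 2 of 6 stellate cell markers. All 3 blood markers and 1 of 5 pericentral hepatocyte markers were lower too. Higher were 1 hepatocyte, 1 pericentral hepatocyte and 1 of 5 sinusoidal endothelium markers. No periportal hepatocyte, Kupffer cell or adipose marker was called. Over all genes tested 11.6% were higher and 12.2% lower. Within the Cse-/- no-Cys group av08 was the highest in both sums, at 67554 and 101 CPM, with the other 3 livers at 40932 to 45150 and 59.4 to 68.7 CPM. It also differed more from the others over all genes, by a chi-square per gene of 43.3 to 48.9 against 9.60 to 16.3 among the other 3. Within Cse+/- mice the hepatocyte, pericentral and periportal sums were lower on the no-Cys than on the control diet, without overlap. Periportal markers summed to 6157 to 8198 CPM against 9009 to 9241 CPM in control livers. Pericentral markers summed to 12596 to 14299 CPM against 15222 to 16657 CPM. The Kupffer cell sum was higher, at 198 to 257 CPM against 170 to 197 CPM. The part of all these markers in the differences below was not tested. The 8 markers of exocrine pancreas, a tissue with high *Asns*, were near 0, at a summed 0.0738 to 2.26 CPM in all livers. The 5 adipose markers summed to 31.3 CPM in mouse av17 (Cse+/-, no-Trp) and 13.2 CPM in mouse av14 (Cse-/-, no-Trp), with 0 to 0.920 CPM in the other 18 livers. Of the calls of the 8 genes that rest on no-Trp livers, leaving out av14 or av17 ended that of *Got1* between the no-Cys and no-Trp diets in Cse+/- mice alone, given below. In bulk liver, fewer cells of a type and less RNA per cell cannot be told apart.

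Of the 8 genes, 5 were higher and none was lower in Cse-/- than in Cse+/- livers on the no-Cys diet: *Asns*, *Pycr1*, *Got1*, *Gpt* and *Gpt2*. In that comparison 11.6% of the genes tested were called higher and 12.2% lower. The median log2 fold change was 0.59 over the 8 genes and -0.0093 over all genes tested. As the 8 genes were chosen with earlier results of these data known, this contrast is a description and not a test. On the no-Trp diet the same comparison of genotypes called *Asns* alone, where 1.4% of genes were called higher and 1.24% lower.

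*Asns*, the asparagine synthetase gene (ENSMUSG00000029752, GRCm38 chr6:7675169-7693254, minus strand), spanned the widest range of the 8 as a ratio of the highest to the lowest liver. Its levels were 108, 139.9, 143 and 75.8 CPM in Cse-/- no-Cys livers (av05 to av08) and 16.6, 1.48, 3.19 and 0.920 CPM in Cse+/- no-Cys livers (av01 to av04). It was at 20.2, 25.1 and 25.1 CPM in Cse-/- no-Trp livers and at 35.8, 43.6, 38.3 and 24.3 CPM in Cse-/- no-Trp + BSO livers. Cse+/- no-Trp livers had 2.91, 2.67 and 3.55 CPM and Cse+/- control livers 1.31 and 1.81 CPM. Every Cse-/- liver was thus above every Cse+/- liver, and the 4 Cse-/- no-Cys livers were above all others. By group mean the order from the lowest was Cse+/- control, Cse+/- no-Trp, Cse+/- no-Cys, Cse-/- no-Trp, Cse-/- no-Trp + BSO and Cse-/- no-Cys. In that order the ranges of Cse+/- no-Trp and Cse+/- no-Cys overlapped, as did those of Cse-/- no-Trp and Cse-/- no-Trp + BSO.

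The means of *Asns* were 117 ± 31.5 CPM (SD, n = 4) and 5.54 ± 7.42 (SD, n = 4) on the no-Cys diet in Cse-/- and Cse+/- livers, a log2 fold change of 4.46 ± 0.51 (adjusted p = 7.77e-06). Without av01 it was 5.99. On the no-Trp diet *Asns* was 2.96 ± 0.58 higher in Cse-/- livers (adjusted p = 0.0107), a call that was lost without mouse av19 (2.84, adjusted p = 0.0594). Between Cse-/- groups it was 2.31 ± 0.49 higher on the no-Cys than on the no-Trp diet (adjusted p = 0.00646), where 5.05% of genes were called higher and 5.35% lower. The interaction of genotype and diet, by which the genotype difference on the no-Cys diet exceeded that on the no-Trp diet, was 1.51 ± 0.75 and did not pass the test (adjusted p = 0.278). It passed without av01 (3.03, adjusted p = 0.00113). For the interaction 1.67% of genes were called higher and 2.69% lower.

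Addition of BSO to the no-Trp diet left *Asns* between the other Cse-/- groups. Its mean was 35.5 ± 8.12 CPM (SD, n = 4), against 23.5 ± 2.80 (SD, n = 3) on the no-Trp diet alone, a log2 fold change of 0.59 ± 0.47 that was not called (adjusted p = 0.645). Against the no-Cys diet *Asns* fell by 1.72 ± 0.43 (adjusted p = 0.0366), where 1.42% of genes were called higher and 1.33% lower. The groups did not overlap, but the call was lost when any of the 8 livers other than av08 was left out (log2 fold change -1.58 to -1.84, adjusted p 0.0520 to 0.107). In Cse+/- livers *Asns* was 1.77 ± 0.80 higher on the no-Cys than on the control diet, without a call (adjusted p = 0.273), and 0.26 higher without av01.

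**Figure D1:**
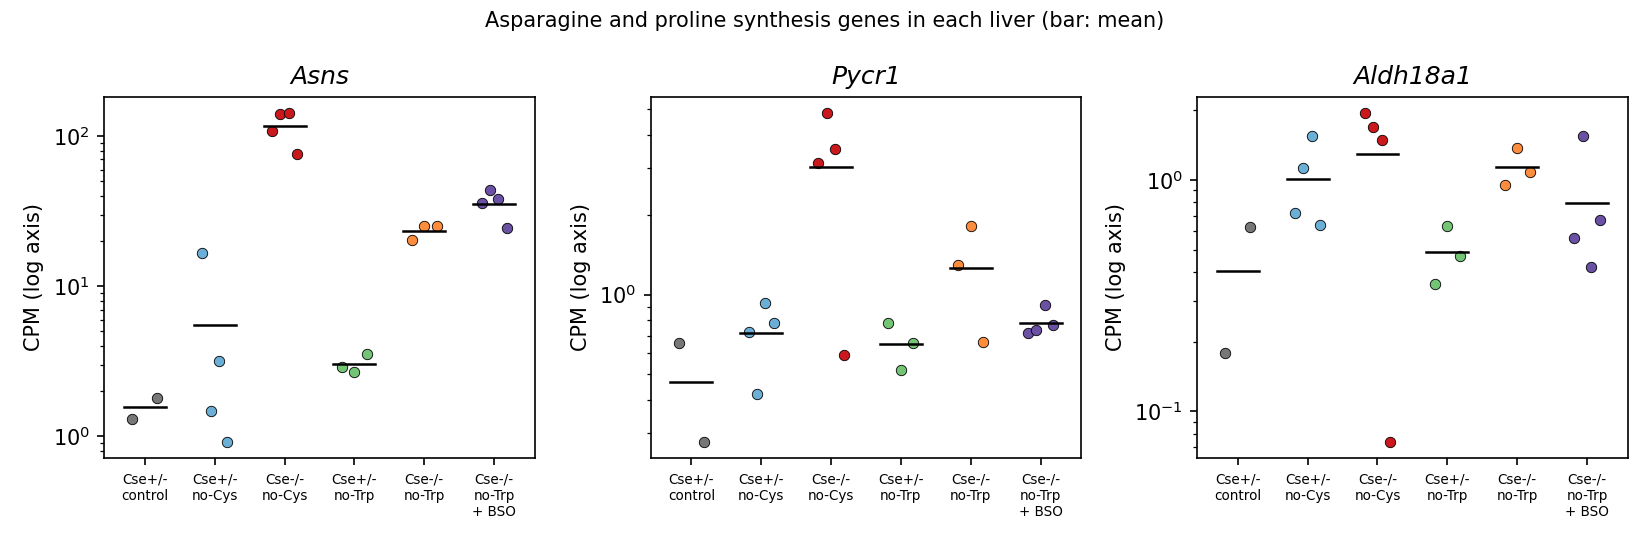
CPM on a log axis of *Asns*, *Pycr1* and *Aldh18a1* in each of the 20 livers by group, 1 point per liver and a bar at the group mean. *Asns* lies at 20.2 CPM or more in all 11 Cse-/- livers and at 16.6 CPM or less in all 9 Cse+/- livers, and 1 Cse-/- no-Cys liver (av08) lies low in *Pycr1* and *Aldh18a1*.

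Of the 3 genes of the proline pathway, only *Pycr1* was called. *Pycr1* (ENSMUSG00000025140, chr11:120635712-120643769, minus strand), the gene for the mitochondrial reductase that completes proline, was low in liver, with 4 to 66 reads per library. It was at 3.13, 4.84, 3.54 and 0.590 CPM (53, 66, 57 and 8 reads) in Cse-/- no-Cys livers and at 0.721, 0.423, 0.933 and 0.778 CPM (8, 6, 12 and 11 reads) in Cse+/- no-Cys livers. Of the Cse-/- no-Cys livers 3 were above every other liver of the series, while av08 was within the range of Cse+/- livers, so that the groups overlapped. The log2 fold change was 2.08 ± 0.45 (adjusted p = 0.00259), and 1.77 to 2.42 when single livers were left out.

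Cse-/- no-Trp livers had 1.29, 1.81 and 0.663 CPM of *Pycr1*, and Cse-/- no-Trp + BSO livers 0.715, 0.737, 0.912 and 0.769. In Cse+/- livers it was at 0.521 to 0.782 CPM on the no-Trp diet and at 0.654 and 0.278 on the control diet. Against the no-Cys diet, no-Trp + BSO livers were lower by a log2 fold change of -1.97 ± 0.42 (adjusted p = 0.0202), a call that was lost without any of av05, av06, av07, av09, av11 and av12 (adjusted p 0.0510 to 0.0838). The difference between no-Cys and no-Trp livers of Cse-/- mice, 1.30 ± 0.44, did not pass (adjusted p = 0.0635), and passed without av08 (1.64, adjusted p = 0.00257) or av15 (1.62, adjusted p = 0.0462), and with all livers in DESeq2 (adjusted p = 0.0400) and without a filter on low counts (adjusted p = 0.0353).

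*Aldh18a1* (ENSMUSG00000025007, chr19:40550257-40588463, minus strand), the gene for the synthase that commits glutamate to proline, was called in none of the 9 comparisons. It had 1 to 33 reads per library, so that only large differences were detectable at this depth. It was at 1.95, 1.69, 1.49 and 0.0738 CPM (33, 23, 24 reads and 1 read) in Cse-/- no-Cys livers and at 0.721, 1.13, 1.56 and 0.637 CPM in Cse+/- no-Cys livers. The lowest of all livers was av08, and the log2 fold change was 0.38 ± 0.52 (adjusted p = 0.641). On the no-Trp diet Cse-/- livers had 0.949, 1.37 and 1.08 CPM and Cse+/- livers 0.355, 0.634 and 0.467 CPM, without overlap and without a call (1.12 ± 0.60, adjusted p = 0.330).

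*Prodh* (ENSMUSG00000003526, chr16:18060357-18090203, minus strand), the gene for proline dehydrogenase, was called in no comparison either. Its mean was 224 ± 30.7 CPM (SD, n = 4) in Cse-/- and 224 ± 66.5 (SD, n = 4) in Cse+/- no-Cys livers, with a log2 fold change of 0.0037 ± 0.16 (adjusted p = 0.991). In Cse+/- no-Cys livers it was at 323 CPM in av01 and at 196, 191 and 185 in the others. The 2 control livers were at 322 and 336 CPM, close to av01 and above the other 3, and without av01 *Prodh* was called lower on the no-Cys than on the control diet (-0.78, adjusted p = 0.0107) and than on the no-Trp diet (-0.51, adjusted p = 0.0320).

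Among 14 genes of proline and hydroxyproline metabolism and of the path from ornithine, of which 13 were tested, 2 were higher and 2 lower in Cse-/- no-Cys than in Cse+/- no-Cys livers, with a median log2 fold change of 0.0037. Over all genes tested 11.6% were higher and 12.2% lower, with a median of -0.0093. The other gene that was higher was *Oat*, for the aminotransferase that turns ornithine into the precursor of proline and also a marker of pericentral hepatocytes, at 743 to 841 CPM against 433 to 609 CPM (0.56 ± 0.12, adjusted p = 0.00290). *Prodh2*, for hydroxyproline dehydrogenase, was the lowest of the list, at 198, 176, 179.8 and 212 CPM against 293, 286, 303 and 364 CPM (-0.70 ± 0.11, adjusted p = 1.55e-04), and it was also lower on the no-Cys than on the no-Trp diet in Cse-/- livers (-0.56 ± 0.12, adjusted p = 0.00543). *Hoga1*, for the closing enzyme of hydroxyproline breakdown and named after its values were seen, was the other gene that was lower (-0.53 ± 0.12, adjusted p = 0.00311). *Pycr3*, for a reductase that shares the PYCR1 step (0.18 ± 0.09, adjusted p = 0.179), and *Aldh4a1*, which completes proline breakdown (-0.14 ± 0.10, adjusted p = 0.307), were not called. Of this list *P4ha1*, for a subunit of prolyl 4-hydroxylase, was the 1 gene called higher on the no-Cys than on the no-Trp diet in Cse-/- livers (0.63 ± 0.16, adjusted p = 0.0165). Its call was lost without av14 (0.64, adjusted p = 0.0514), and the count of calls in the list, 2 with *Prodh2*, was 1 to 5 when single livers were left out. Between these groups 5.05% of all genes tested were called higher and 5.35% lower.

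*Got1* (ENSMUSG00000025190, chr19:43499752-43524605, minus strand), the cytosolic aspartate aminotransferase gene, had another order of groups than *Asns*. It was highest in Cse+/- control livers, at 1086 and 1472 CPM, and lowest in Cse+/- no-Cys livers, at 415, 281, 431 and 260.2 CPM. Cse-/- no-Cys livers lay in a narrow band of 901, 926, 928 and 952 CPM, above all Cse+/- no-Cys livers and below both control livers. Cse+/- no-Trp livers had 761, 580.2 and 604 CPM, Cse-/- no-Trp livers 424, 877 and 483 CPM, and Cse-/- no-Trp + BSO livers 732, 795, 703 and 743 CPM. The means were 1279 ± 273 CPM (SD, n = 2) in the controls, 347 ± 88.7 (SD, n = 4) in Cse+/- no-Cys and 927 ± 20.8 (SD, n = 4) in Cse-/- no-Cys livers.

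On the no-Cys diet *Got1* was 1.42 ± 0.20 higher in Cse-/- than in Cse+/- livers (adjusted p = 5.08e-05). On the no-Trp diet *Got1* was not called between genotypes (-0.12 ± 0.22, adjusted p = 0.811), and the interaction of genotype and diet was called, at 1.54 ± 0.29 (adjusted p = 0.00562). Within Cse+/- mice *Got1* fell by 1.88 ± 0.23 from the control to the no-Cys diet (adjusted p = 3.38e-04). There 0.989% of genes were called higher and 1.19% lower. It was also lower on the no-Cys than on the no-Trp diet in Cse+/- mice (-0.90 ± 0.21, adjusted p = 0.0117), where 4.63% of genes were called higher and 3.41% lower, and this call was lost without av17 (-0.77, adjusted p = 0.0521). Without a Cse-/- control group, the genotype difference on the no-Cys diet could not be set against the difference of genotypes on the control diet.

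In Cse-/- livers *Got1* was 0.64 ± 0.21 higher on the no-Cys than on the no-Trp diet without a call (adjusted p = 0.0564). It passed without mouse av15, the highest of the 3 no-Trp livers at 877 CPM (1.02, adjusted p = 0.00241). With all livers kept, it also passed in DESeq2 (0.64, adjusted p = 0.0206), without a filter on low counts (0.63, adjusted p = 0.0167) and among genes with a mean CPM of at least 1 (0.64, adjusted p = 0.0491). For *Gpt2* the difference of 0.36 ± 0.12 (adjusted p = 0.0610) passed without av15 (0.53, adjusted p = 0.00785), in DESeq2 (adjusted p = 0.0253) and among genes with a mean CPM of at least 1 (adjusted p = 0.0487). Mouse av15 was also the highest of its group in *Got2*, *Gpt*, *Gpt2*, *Pycr1* and *Aldh18a1*. The no-Trp + BSO livers were all below the no-Cys livers in *Got1* (-0.32 ± 0.19, adjusted p = 0.369). This did not pass, except when these 2 groups were fitted alone (adjusted p = 0.0475).

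*Got2* (ENSMUSG00000031672, chr8:95864134-95888547, minus strand), the mitochondrial counterpart, was called in no comparison. It was at 469.6, 450.0, 388 and 468 CPM in Cse-/- no-Cys livers and at 375, 374, 401 and 356 CPM in Cse+/- no-Cys livers, overlapping in av07 and av03 (0.24 ± 0.12, adjusted p = 0.167). The controls were at 368 and 386 CPM, and over all livers the range was 281 to 511 CPM. Its group means ran from 358 ± 68.4 CPM (SD, n = 3) in Cse+/- no-Trp to 444 ± 38.1 (SD, n = 4) in Cse-/- no-Cys livers. Of the 61-base words of *Got2* transcripts 22.7% also occur in other genes, among them the pseudogene *Got2-ps1*, and 9.00% of its exon bases overlap *Gm45760* on the opposite strand, so that its counts are less certain than those of the other 7 genes, which share at most 0.479% of their words.

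The alanine aminotransferases moved by like amounts. *Gpt* (ENSMUSG00000022546, chr15:76695716-76699686, plus strand), for the cytosolic enzyme, was at 596, 520.2, 589 and 638 CPM in Cse-/- no-Cys livers and at 462, 343, 372 and 380.3 CPM in Cse+/- no-Cys livers. *Gpt2* (ENSMUSG00000031700, chr8:85492576-85527560, plus strand), for the mitochondrial enzyme, was at 813, 741, 889.9 and 753 CPM against 547, 508, 544 and 518 CPM. Neither pair of groups overlapped, and the log2 fold changes were 0.59 ± 0.13 for *Gpt* (adjusted p = 0.00216) and 0.59 ± 0.11 for *Gpt2* (adjusted p = 7.97e-04).

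The control livers were as high as the Cse-/- no-Cys livers in both genes, at 571 and 565 CPM of *Gpt* and at 746 and 835 CPM of *Gpt2*, and the ranges overlapped. In Cse+/- mice *Gpt2* fell by 0.58 ± 0.13 from the control to the no-Cys diet (adjusted p = 0.0251), and its call was lost without av02, av03, av21 or av22 (-0.50 to -0.66, adjusted p 0.0504 to 0.372). For *Gpt* the difference was -0.54 ± 0.15 (adjusted p = 0.0616), and it passed without av01 (-0.63, adjusted p = 0.0274), in DESeq2 (adjusted p = 0.0194) and without a filter on low counts (adjusted p = 0.0360). On the no-Trp diet *Gpt* was at 503, 528 and 452 CPM in Cse-/- and 489, 559 and 337 CPM in Cse+/- livers, and *Gpt2* at 520.2, 762 and 583 CPM and 601, 541 and 471 CPM, with overlap in both genes. Their genotype differences there were 0.10 ± 0.14 (adjusted p = 0.769) and 0.21 ± 0.13 (adjusted p = 0.400). Neither passed the test of interaction (0.49 ± 0.19, adjusted p = 0.155, and 0.38 ± 0.17, adjusted p = 0.215). That of *Gpt* passed without av20 (0.67, adjusted p = 0.0226) and that of *Gpt2* without av15 (0.56, adjusted p = 0.0443). With BSO, *Gpt2* was at 660.1, 557, 657 and 644 CPM, below all Cse-/- no-Cys livers, without a call (-0.34 ± 0.11, adjusted p = 0.0913), while DESeq2 called it (-0.35, adjusted p = 0.0332).

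**Figure D2:**
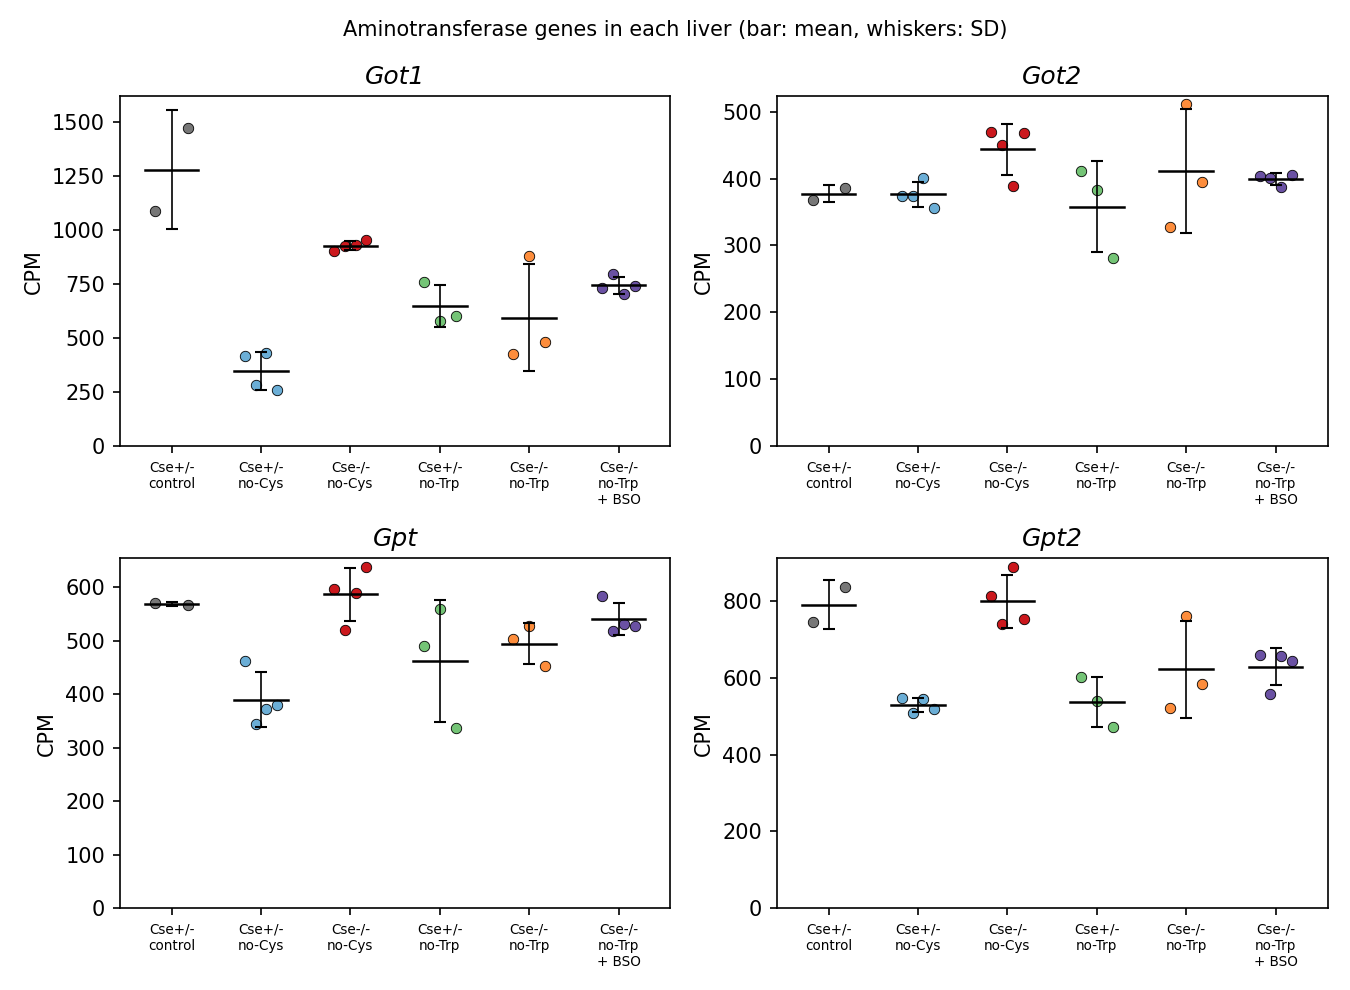
CPM of *Got1*, *Got2*, *Gpt* and *Gpt2* in each liver by group, with 1 point per liver, a bar at the mean and whiskers of 1 SD. *Got1* is lowest in Cse+/- no-Cys livers, at 260.2 to 431 CPM, and highest in Cse+/- control livers, and *Got2* stays between 281 and 511 CPM in all livers.

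None of the 8 genes was called between no-Trp + BSO and no-Trp livers of Cse-/- mice by edgeR, none had an unadjusted p under 0.05 and DESeq2 called none, where 0.488% of genes were called higher and 0.305% lower. The log2 fold changes ran from -0.66 for *Pycr1* to 0.59 for *Asns*. None was called either between the no-Trp and the control diet in Cse+/- livers, where 0.00678% were called higher and 0.0407% lower, though 2 of the 8, against 1371 of the 14759 genes tested, had an unadjusted p under 0.05. DESeq2 called the same 2, *Got1* (-0.98) and *Gpt2* (-0.55), and 60 of all genes.

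**Figure D3:**
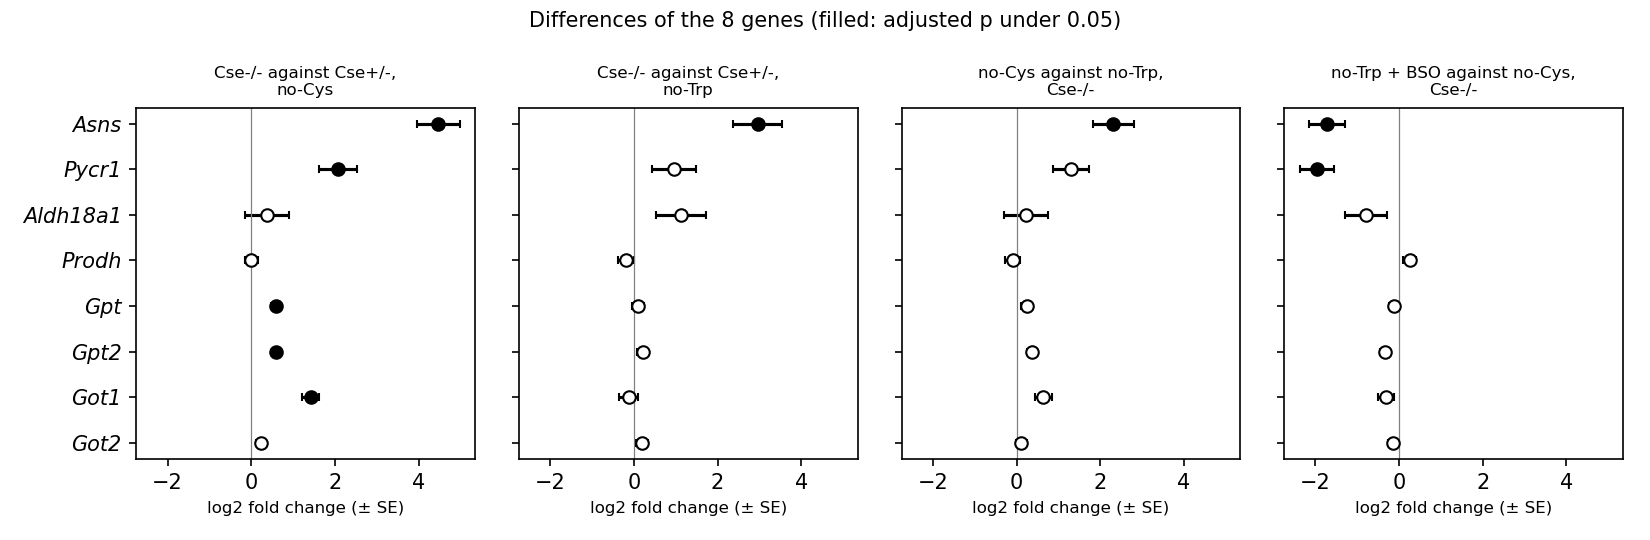
Log2 fold changes ± SE of the 8 genes in 4 comparisons, filled where the adjusted p was under 0.05. In the comparison of genotypes on the no-Cys diet 5 of 8 points are filled, against 1 on the no-Trp diet, and *Asns* has the largest value in 3 of the 4 panels.

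Members were also compared as ratios within a liver. The log2 ratio of *Got1* to *Got2* was -0.15 ± 0.32 (SD, n = 4) in Cse+/- no-Cys livers and 1.07 ± 0.13 (SD, n = 4) in Cse-/- no-Cys livers, a difference of 1.22 without overlap. The exact permutation test gave the smallest p that 4 against 4 livers allow (two-sided p = 0.0286), and the p adjusted over the 6 ratio tests was 0.171. The ratio was highest in Cse+/- control livers, at 1.74 ± 0.26 (SD, n = 2). The log2 ratio of *Gpt2* to *Gpt* was 0.45 ± 0.15 (SD, n = 4) in both groups, with a difference of -0.0027 (exact permutation p = 0.943). From Cse-/- no-Cys to no-Trp + BSO livers it was lower by 0.23 (0.22 ± 0.096, SD, n = 4, exact permutation p = 0.0857, adjusted p = 0.171). The log2 ratio of *Pycr1* to *Prodh*, the closing step of synthesis against the opening step of breakdown, was -6.47 ± 1.45 (SD, n = 4) in Cse-/- no-Cys, -8.11 ± 0.56 (SD, n = 4) in Cse+/- no-Cys and -8.23 ± 0.27 (SD, n = 4) in no-Trp + BSO livers. Neither difference passed (exact permutation p = 0.114 and p = 0.143, adjusted p = 0.171 for both). Without av08 the differences of *Pycr1* to *Prodh* were 2.34 and -2.46, and those of *Got1* to *Got2* between genotypes and of *Gpt2* to *Gpt* with BSO 1.23 and -0.30, with an adjusted p of 0.0429 in each of these 4 exact tests. All 4 were at the smallest p that the remaining livers allow, and they pass only because they reach it together.

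**Figure D4:**
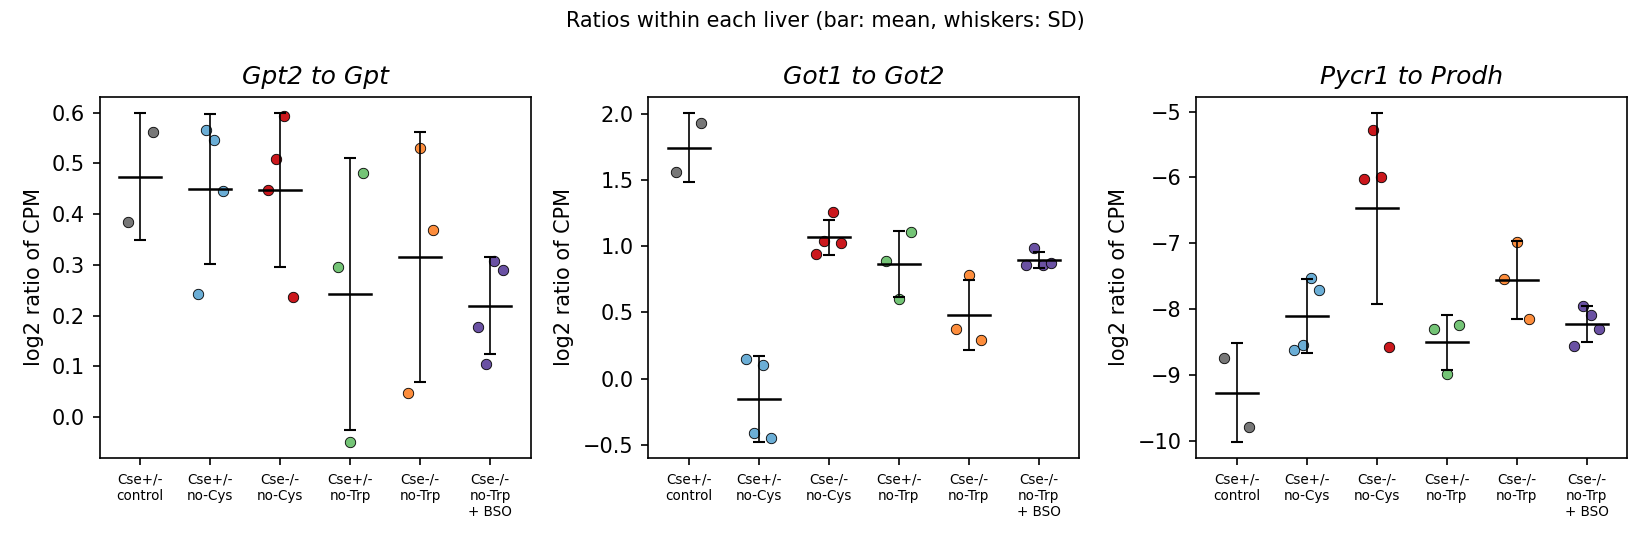
Log2 ratios of CPM within each liver by group for *Gpt2* to *Gpt*, *Got1* to *Got2* and *Pycr1* to *Prodh*, with 1 point per liver, a bar at the mean and whiskers of 1 SD. All Cse+/- no-Cys livers lie at 0.15 or below in *Got1* to *Got2*, and all other livers at 0.29 or above.

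Compared per length, as CPM for each kilobase of merged exons (RPKM), *Got1* was the most abundant of the 8 in every group, from 137 RPKM in Cse+/- no-Cys to 504 RPKM in Cse+/- control livers. *Gpt* (132 to 199 RPKM), *Gpt2* (93.8 to 142 RPKM) and *Got2* (74.2 to 92.0 RPKM) followed, an order that changed among these 3 when the longest transcript was used as the length. *Prodh* was at 28.7 to 42.1 RPKM. *Asns* was below *Prodh* in 5 groups, from 0.570 RPKM in Cse+/- control livers upwards, and above it in Cse-/- no-Cys livers alone, at 42.6 ± 11.5 RPKM against 28.7 ± 3.94 RPKM (SD, n = 4). *Pycr1* and *Aldh18a1* were at or below 0.768 RPKM in every group.

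Of the 14 genes of aspartate and asparagine metabolism and the malate–aspartate shuttle, all tested, 4 were higher and 1 lower in Cse-/- no-Cys than in Cse+/- no-Cys livers, with a median log2 fold change of 0.15. The shares over all genes tested were 11.6% higher and 12.2% lower, with a median of -0.0093. With *Asns*, *Got1* and *Got2* left out, 2 of 11 were higher and 1 lower, with a median of 0.075. *Mdh2*, for the mitochondrial malate dehydrogenase of the shuttle, was at 277, 296, 296 and 259 CPM against 215, 198, 210.1 and 221 CPM (0.42 ± 0.08, adjusted p = 0.00114). *Ddo*, for D-aspartate oxidase and named after its values were seen, was the other gene that was higher (0.51 ± 0.14, adjusted p = 0.0146). *Nit2*, for an ω-amidase, was the gene that was lower (-0.33 ± 0.09, adjusted p = 0.0137), a call lost without av07 (-0.25, adjusted p = 0.0782). The remaining shuttle genes were not called: *Mdh1* (-0.07 ± 0.09), and the carriers *Slc25a12* (0.15 ± 0.14), *Slc25a13* (0.05 ± 0.11) and *Slc25a11* (0.08 ± 0.07). Nor were the asparaginase genes *Aspg* (-0.01 ± 0.12) and *Asrgl1* (0.23 ± 0.19). *Aspa*, for the enzyme that frees aspartate from N-acetylaspartate, was higher in Cse-/- no-Trp livers, at 17.9, 28.7 and 15.9 CPM, than in both Cse-/- no-Cys livers (10.0 CPM on average, -1.05 ± 0.18, adjusted p = 0.00114) and no-Trp + BSO livers (10.4 CPM on average, -0.998 ± 0.17, adjusted p = 0.00694). These comparisons share the no-Trp livers, and the call against no-Trp + BSO was lost without av15 (-0.72, adjusted p = 0.0519) or when these groups were fitted alone (adjusted p = 0.0514).

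Of the 12 genes of alanine, glyoxylate and pyruvate entry, *Gpt* and *Gpt2* were the 2 that were higher in Cse-/- no-Cys than in Cse+/- no-Cys livers. Again 11.6% of all genes tested were higher and 12.2% lower. The 10 others gave none higher and 1 lower, *Mpc2* (-0.38 ± 0.11, adjusted p = 0.0145), for a subunit of the mitochondrial pyruvate carrier, with a median log2 fold change of 0.077. The call of *Mpc2* was lost without av04 (-0.25, adjusted p = 0.0664) or av05 (-0.35, adjusted p = 0.0502). The other alanine-using aminotransferases of liver, *Agxt* (0.12 ± 0.15, adjusted p = 0.608) and *Agxt2* (0.09 ± 0.12, adjusted p = 0.636), were not called.

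Serine, glycine and folate genes were set beside these lists. Of 14 tested, 8 were higher and 1 lower in Cse-/- no-Cys against Cse+/- no-Cys livers, with a median log2 fold change of 0.62. For all genes tested the shares were 11.6% higher and 12.2% lower, with a median of -0.0093. The highest was *Psat1*, for the aminotransferase of serine synthesis, at 64.5, 66.4, 66.7 and 33.8 CPM against 0.991, 0.988, 0.933 and 1.13 CPM (5.83 ± 0.40, adjusted p = 3.29e-08), and the lowest *Mthfd2l*, for a mitochondrial folate dehydrogenase (-0.75 ± 0.25, adjusted p = 0.0340), whose call was lost in 8 of 15 alternatives, among them without av01, av02, av05, av06, av07 or av08 (-0.63 to -0.79, adjusted p up to 0.0946). As for *Asns*, the lowest of the Cse-/- no-Cys livers was av08. From Cse-/- no-Cys to no-Trp + BSO livers 5 of the 14 were lower and none higher, with *Psat1* at 5.54 to 13.6 CPM (-2.43 ± 0.30, adjusted p = 5.46e-04). Between these groups 1.33% of all genes tested were lower and 1.42% higher. In that comparison 1 of the 14 aspartate and asparagine genes (*Asns*) and 1 of the 13 proline genes (*Pycr1*) were lower. These counts of calls moved with the processing, from 0 to 2 for the aspartate and asparagine list, 0 to 4 for the proline list and 3 to 7 for the serine list over 16 alternatives each. None of the 12 alanine genes was called in this comparison by edgeR, where 2 had an unadjusted p under 0.05 and DESeq2 called 1. Of all 14759 genes tested, 2958 had such a p and DESeq2 called 878.

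**Figure D5:**
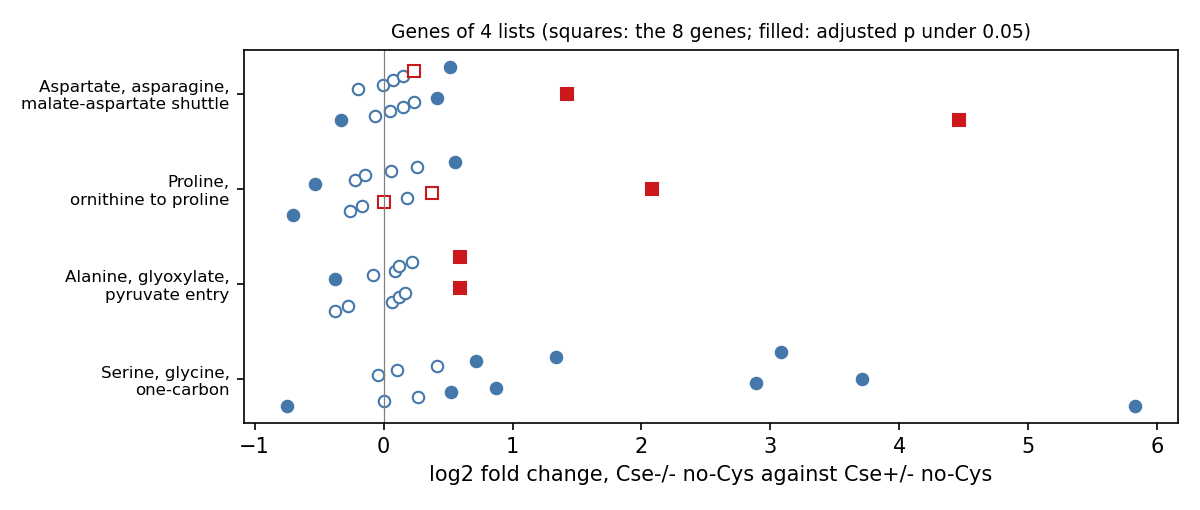
Log2 fold changes of the tested genes of 4 lists in Cse-/- no-Cys against Cse+/- no-Cys livers, with squares for the 8 genes and circles for other genes, filled where the adjusted p was under 0.05 (vertical spread within a list has no meaning). The filled squares lie at 0.59 or more, and apart from the serine list no circle lies above 0.56.

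The genes whose log2 CPM over the 20 livers was most like that of *Asns* among 12582 genes were *Gm19619* (Pearson r = 0.92), *Adora1* (r = 0.92) and *Psat1* (r = 0.92). For *Got1* they were *Sap30bp* (r = 0.90), *Sugp1* (r = 0.88) and *Gnl2* (r = 0.87), and for *Gpt2* they were *Ogdh* (r = 0.88), *Wdr36* (r = 0.88) and *Sugp1* (r = 0.86). *Got2* was most like *Gnpat* (r = 0.91), *Ube3b* (r = 0.90) and *Tmem260* (r = 0.89), *Gpt* most like *Rmnd5b* (r = 0.84), *Dcxr* (r = 0.84) and *Gm3336* (r = 0.84), and *Prodh* most like *Arhgef19* (r = 0.87) and *Lamc3* (r = 0.82). The sparse *Pycr1* and *Aldh18a1* were most like *Ghitm* (r = 0.88), *Bbip1* (r = 0.88) and *Gng5* (r = 0.87), and *Atp6v1c1* (r = 0.75), *Nbn* (r = 0.75) and *Gtf2f2* (r = 0.71). The points of each correlation share the 6 groups and the same libraries, so that these values describe likeness of pattern over groups.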

How the data were processed

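Poly(A) RNA of each liver was sequenced from both ends with a kit that does not keep the strand. The authors aligned reads with HISAT2 2.1.0 to GRCm38, counted them on genes with HTSeq 0.11.0 (annotation release not given in the sources used here) and deposited raw counts. Of 21 columns 20 were used. The remaining 1 had no condition in the sources used here. Columns were matched to groups through the mouse numbers, and symbols and coordinates came from GENCODE M21. Pairs of libraries of a group differed by more than counting noise (chi-square per gene 9.60 to 64.2 over 25 pairs).

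Counts were fitted with edgeR 4.0.16 (R 4.3.3, limma 3.58.1): filterByExpr (minimum count 10, minimum total 15), TMM factors, a mean for each of the 6 groups over all 20 libraries, quasi-likelihood tests, and adjustment over 14759 genes at 0.05. Libraries of a group came from separate mice. The edgeR tests set differences of group means against a spread between livers that is estimated over all 6 groups, with information shared between genes. Ratios used log2 CPM with a prior count of 2. Alternatives were DESeq2 1.42.0, RLE and upper-quartile factors, other filters, a fit of only the groups compared, thinning to the shallowest library, a threshold of 0.01 and leaving out each library. The test was checked on simulated counts.

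Members and lists were chosen with earlier results of these data known. Named were the 8 genes, genes sharing a step with them, the called gene with the largest change each way in each list in 4 comparisons, and the 3 genes most like each member among genes with a mean CPM of at least 1. Of the genes that this rule names, 2 are not reported here.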

Additional observations from a re-analysis of the deposited data

Results flagged for a closer look

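Of 33 groups of 4 livers tested for the 8 genes and the 3 ratios, 4 held a liver far from the other 3 by Dixon's criterion for the gap to the nearest liver (0.849 to 0.920 of the group's range), and chance gives about 1 in 20. In Cse+/- no-Cys livers mouse av01 was high in *Asns*, at 16.6 CPM against 0.920 to 3.19 CPM, and in *Prodh*, at 323 CPM against 185 to 196 CPM. The same liver had the highest *Cth* and blood markers of the series. In Cse-/- no-Trp + BSO livers mouse av10 was low in *Gpt2*, at 557 CPM against 644 to 660.1 CPM, and high in the log2 ratio of *Got1* to *Got2*, at 0.99.

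The genotype difference of *Got1* was larger on the no-Cys than on the no-Trp diet by 1.54 on the log2 scale (edgeR's test of the interaction, adjusted p = 0.00562), and this held under all 22 alternatives (1.36 to 1.94, adjusted p 2.14e-05 to 0.0197).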

How the results depend on the processing

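The count of 5 genes called between genotypes on the no-Cys diet was 5 under all 16 alternatives. At an adjusted p under 0.01 the aspartate and asparagine list gave 3 calls in place of 5. That threshold left 0 of the 8 genes between genotypes on the no-Trp diet, 0 between no-Trp + BSO and no-Cys, 1 between the no-Cys and the control diet in Cse+/- mice (2 at 0.05) and 0 between no-Cys and no-Trp in Cse+/- mice. Between no-Cys and no-Trp in Cse-/- mice DESeq2 called 4, no filter on low counts 3 and a mean CPM of at least 1 called 3, against 1. Between the no-Trp and the control diet in Cse+/- mice DESeq2 called 2 and no filter 1, against 0. The cause was not tested. Between no-Trp + BSO and no-Cys DESeq2 did not call *Asns* (-1.72, adjusted p = 0.0601) and called *Gpt2*, and fitting these 2 groups alone called 3 of the 8 genes, against 2.

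Leaving out each library gave 0 to 1 calls between genotypes on the no-Trp diet, 1 to 4 between no-Cys and no-Trp in Cse-/- mice, 0 to 2 between no-Trp + BSO and no-Cys, 1 to 4 between no-Cys and control and 0 to 2 between no-Cys and no-Trp in Cse+/- mice, and 1 to 2 for the interaction. The ratio differences were then -0.30 to -0.18 (*Gpt2* to *Gpt*, no-Trp + BSO against no-Cys), 1.12 to 1.32 (*Got1* to *Got2*, genotypes on no-Cys), and 1.24 to 2.34 and -2.46 to -1.36 (*Pycr1* to *Prodh*, genotypes and no-Trp + BSO). Over all genes, alternatives gave 1860 to 3687 calls between genotypes on the no-Cys diet (3515 in the fit as described) and 40 to 1027 between no-Trp + BSO and no-Cys (406).

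No paired analysis was possible because the columns are mouse numbers and carry no replicate numbers of the labels. *Pycr1* and *Aldh18a1*, with at most 66 reads in a library, are limited by depth.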
